A study of Mus musculus with 23 samples.

Results

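The YAP/TEAD genes described here were 10 genes taken by symbol from a table of unique molecular identifier (UMI) counts: Ccn1, Ccn2, Ankrd1, Ajuba, Amotl2, Lats2 and Axl, which are 7 targets of the pathway, and Yap1, Wwtr1 and Tead1, which are 3 of its transcription factors and co-factors. All 10 symbols were found among the 27207 genes of the table, and all 10 were among the 11144 genes with enough counts to be tested. The rule goes by symbol and sets no limit on their measured values, but the genes were chosen with earlier results of these data known. Counts of the 10 genes set beside shares of all tested genes are therefore a description and not an independent test.

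The libraries were made from mouse pancreatic ductal adenocarcinoma cells, grown as a 2D culture or as organoids in a floating gel of rat-tail collagen type I or in Matrigel, a basement membrane extract. In all, 5 groups came from 1 KC tumour cell line (Ptf1a Cre/+): 2D cells (n = 6), Matrigel organoids at day 13 (n = 3), collagen organoids at day 7 (n = 3), collagen organoids at day 13 in batch 1 (n = 5) and collagen organoids at day 13 in batch 2 (n = 3). The remaining group came from 1 KPC tumour cell line (Pdx1 Cre/+) grown in collagen to day 13 in batch 2 (n = 3). Ptf1a or Pdx1 drives the Cre recombinase in the pancreatic epithelium, and with 1 line per genotype a difference between KPC and KC could not be told apart from a difference between 2 cell lines. Organoids were freed from their gels by collagenase before lysis, while 2D cells were lysed directly, so digestion could not be told apart from growth in a gel. The study describes the Matrigel and batch 1 collagen replicates as independent experiments. For the 2D and batch 2 libraries the sources used here give only replicate numbers, so p-values that involve them measured a spread between libraries that may be technical.

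YAP (encoded by Yap1) and its paralogue TAZ (encoded by Wwtr1) are transcriptional co-activators that have no DNA-binding domain and reach their targets through TEAD proteins such as TEAD1. When the Hippo kinases LATS1 and LATS2 are active they phosphorylate YAP and TAZ and hold them in the cytoplasm, whereas spreading on a stiff substrate and tension of the cytoskeleton favour their entry into the nucleus. In the pancreas the pair is known for its part in ductal cells and in tumours. Several targets act back on the pathway: AMOTL2 binds YAP, LATS2 phosphorylates it, and AJUBA binds LATS kinases.

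TEAD proteins recognise an element with the core GGAATG, which reads CATTCC when it lies on the opposite strand. Promoters were taken from RefSeq on the mouse build GRCm38.p6, and the 250 bases before each transcription start were searched for either form of the core. The table held 8 of the 10 genes, all but Ccn2 and Tead1, and 7 of those 8 carried the core, compared with 14.4% of the 27025 genes of the table and 12.6% of its 32851 promoters. The windows of Ccn1, Ajuba and Axl, 3 of the targets that differed between conditions, are shown whole, with the core in capitals.
Ccn1: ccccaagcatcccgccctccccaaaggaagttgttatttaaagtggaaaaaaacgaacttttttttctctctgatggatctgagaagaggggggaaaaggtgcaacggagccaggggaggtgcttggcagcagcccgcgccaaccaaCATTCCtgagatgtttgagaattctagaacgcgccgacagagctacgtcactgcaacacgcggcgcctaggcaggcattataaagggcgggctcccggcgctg
Ajuba: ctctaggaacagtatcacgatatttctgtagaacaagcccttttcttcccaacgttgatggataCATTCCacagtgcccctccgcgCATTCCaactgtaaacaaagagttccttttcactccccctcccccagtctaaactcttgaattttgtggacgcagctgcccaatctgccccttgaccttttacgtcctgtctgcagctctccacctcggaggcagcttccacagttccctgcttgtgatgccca
Axl: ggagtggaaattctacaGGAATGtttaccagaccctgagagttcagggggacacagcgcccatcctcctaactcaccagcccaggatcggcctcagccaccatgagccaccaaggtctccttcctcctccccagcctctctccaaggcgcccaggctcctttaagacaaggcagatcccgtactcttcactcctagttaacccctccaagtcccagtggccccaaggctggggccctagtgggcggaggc
These runs lie at chr3:145649986-145650235, chr14:54577662-54577911 and chr7:25788734-25788983, all on the minus strand. The core began 103 bases before the start of Ccn1 and 233 bases before that of Axl, and Ajuba had 2 copies, at 186 and 164 bases.

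For the other 4 genes that carried the core, only 30 bases around it are shown. The windows of Ankrd1 and Amotl2 reach into annotated exons of the same genes, and 1 of the 2 windows of Wwtr1 reaches into the annotated gene. The capitals again mark the core.
Ankrd1, distal copy: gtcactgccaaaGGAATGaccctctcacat
Ankrd1, proximal copy: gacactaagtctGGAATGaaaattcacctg
Amotl2: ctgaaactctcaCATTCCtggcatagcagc
Yap1: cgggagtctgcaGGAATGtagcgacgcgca
Wwtr1: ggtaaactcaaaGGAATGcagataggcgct
The Ankrd1 copies, at chr19:36120037-36120066 and chr19:36119950-36119979 on the minus strand, began 210 and 123 bases before the start. The Amotl2 core (chr9:102717727-102717756, plus strand) began 65 bases before its start, that of Yap1 (chr9:8004720-8004749, minus strand) 141 bases before, and that of Wwtr1 (chr3:57576029-57576058, minus strand) 136 bases before the nearer of the 2 starts. Neither of the 2 windows of Lats2 held the core. A match describes these letters only, and no binding was measured.

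The libraries held between 1221451 and 2471058 UMI counts, and levels are given as CPM, counts per 1000000 counts of a library after TMM scaling. The 2D libraries fell into 2 sets, replicates 1 to 3 (1221451 to 1382736 counts) and replicates 4 to 6 (1649327 to 2091391 counts). The correlation of log2 CPM between 2D libraries was 0.963 to 0.983 within the sets and 0.917 to 0.934 across them. After TMM scaling, Ccn1, Ccn2, Ankrd1, Amotl2, Axl and Wwtr1 were higher in replicates 1 to 3 than in 4 to 6 with no overlap, and Ajuba and Yap1 were lower. The TMM factors were 0.738 to 0.7715 in replicates 1 to 3 and 1.035 to 1.062 in 4 to 6. By library size alone, Axl was lower in replicates 1 to 3 (112, 114 and 116 counts) than in 4 to 6 (208, 216 and 176 counts). The share of all tested genes that separated the sets was not counted, so the split is not shown to be particular to these genes. For the 10 genes, comparisons with 2D cells were therefore also made with each set alone. The 7 ductal epithelial markers were detected in all groups, with summed levels of 7161 to 13990 CPM, although Epcam was at 4.65 to 7.85 CPM in collagen at day 7. Among markers of other cells, the 4 endothelial genes summed to at most 2.67 CPM with Kdr at 0, and the 8 fibroblast genes summed to 25.9 to 131 CPM, mostly Col1a2, with Thy1 at 0. Of the leukocyte list, 2 of 5 genes were in the table: Ptprc stayed at or below 3 counts and Cd68, a macrophage marker, reached 29.9 to 36.2 CPM in Matrigel. The part of these markers in the results was not tested.

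CCN1 and CCN2 are secreted matricellular proteins and widely used readouts of YAP activity. Ccn1 (chr3:145646976-145649981, minus strand, GENCODE on GRCm38, as for all genes here) was at 31.7, 42.3 and 54.2 CPM in 2D cells (lowest, median and highest). In batch 1 organoids it was at 45.1, 48.8 and 59.7 CPM in collagen at day 7, at 23.2, 28.8, 25.8, 27.8 and 16.3 CPM in collagen at day 13, and at 35.8, 34.4 and 37.3 CPM in Matrigel. In batch 2 it was at 64.2, 72.5 and 76.6 CPM in KC and at 139.9, 126 and 116 CPM in KPC organoids. The KPC libraries were thus the highest and the batch 1 day 13 collagen libraries the lowest, and the KC collagen libraries of the same day did not overlap between the batches. Ranked by mean, only the neighbours day 7 and 2D, and 2D and Matrigel, had overlapping ranges.

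Ccn2 (chr10:24595442-24598683, plus strand) followed another order. It was at 102, 116 and 182 CPM in 2D cells (lowest, median and highest) and at 71.6, 65.0 and 84.5 CPM in Matrigel. In collagen it was at 27.0, 32.2 and 28.6 CPM at day 7 and at 19.9, 24.5, 17.2, 19.7 and 11.6 CPM at day 13 of batch 1. Every collagen library was below every Matrigel library, and every Matrigel library was below every 2D library. In batch 2 Ccn2 was at 13.9, 4.88 and 12.7 CPM in KC, which rests on 21, 7 and 19 counts, and at 19.2, 26.9 and 29.6 CPM in KPC (30, 45 and 56 counts). From day 7 collagen downwards in the ranking each group overlapped the next.

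The count ratio of Ccn1 to Ccn2 placed all 2D and Matrigel libraries below all collagen libraries. Its median was 0.318 in 2D cells (0.277 to 0.440) and 0.5 in Matrigel (0.441 to 0.530), and it was 1.67 in day 7 collagen (1.52 to 2.09). At day 13 it was 1.41 in batch 1 (1.16 to 1.5), 6.05 in KC of batch 2 (4.62 to 14.9) and 4.69 in KPC (3.93 to 7.30). The ratio describes a shift between conditions and not the relative abundance of the transcripts, and it was not tested.

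**Figure D1:**
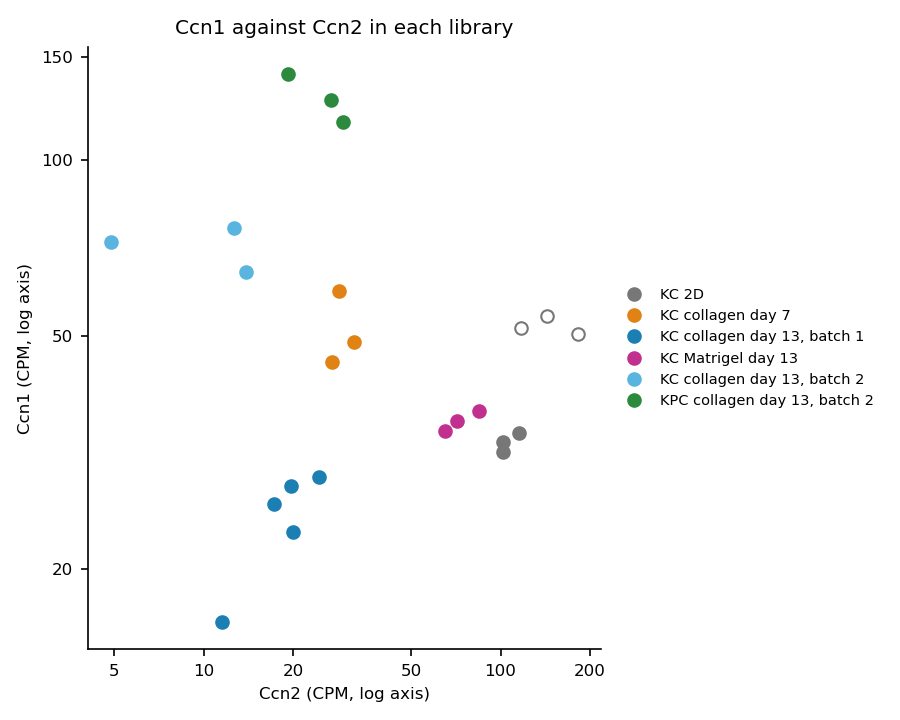
Level of Ccn1 (y axis) against Ccn2 (x axis) in each of the 23 libraries, in CPM on log axes, with 1 point per library coloured by group and open grey points for 2D replicates 1 to 3. The 6 2D and 3 Matrigel libraries lie to the right, at 65.0 CPM of Ccn2 or more, and the KPC libraries lie at the top, at 116 CPM of Ccn1 or more.

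Ankrd1 (chr19:36111961-36120099, minus strand) encodes a stretch-responsive ankyrin repeat protein that acts in the nucleus and the sarcomere. It was at 68.2, 99.4 and 136 CPM in 2D cells (lowest, median and highest), at 90.7, 109.6 and 110.0 CPM in day 7 collagen, and at 138, 141 and 147 CPM in Matrigel. The day 13 collagen values were 32.4, 45.6, 34.5, 45.2 and 25.7 CPM in batch 1, 25.2, 25.1 and 27.3 CPM in KC of batch 2, and 51.7, 51.5 and 56.5 CPM in KPC. All 11 day 13 collagen libraries were below all 12 others. Matrigel stood above every other library, and the ranges of the KC collagen day 13 batches overlapped.

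Ajuba (chr14:54567472-54577558, minus strand) encodes a LIM-domain scaffold that binds LATS kinases at cell junctions. Its level was highest in day 7 collagen, at 77.5, 69.0 and 76.3 CPM, and it was at 41.7, 51.7 and 58.4 CPM in 2D cells (lowest, median and highest) and at 57.8, 51.9 and 46.04 CPM in Matrigel. At day 13 in collagen it was at 30.6, 37.4, 35.4, 35.4 and 35.2 CPM in batch 1, at 14.6, 23.01 and 16.7 CPM in KC of batch 2, and at 19.8, 19.8 and 21.6 CPM in KPC. The batches thus did not overlap for Ajuba at day 13, while KC and KPC within batch 2 did. The 2D and Matrigel ranges also overlapped.

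Amotl2 (chr9:102716672-102733418, plus strand) encodes a motin that holds YAP at junctions and on actin. It was at 19.7, 21.1 and 32.0 CPM in 2D cells (lowest, median and highest), at 25.2, 24.0 and 18.6 CPM in Matrigel and at 17.2, 19.0 and 22.6 CPM in day 7 collagen. At day 13 in collagen it was at 13.0, 12.9, 13.4, 17.0 and 13.1 CPM in batch 1, at 11.9, 16.04 and 11.3 CPM in KC of batch 2 and at 19.8, 16.2 and 21.1 CPM in KPC. Every group overlapped its neighbour in the ranking. Lats2 (chr14:57689662-57758388, minus strand), which encodes a core Hippo kinase, was the lowest covered of the 10 genes, with 6 to 38 counts per library. Its group means ran only from 9.73 CPM in 2D cells to 14.1 CPM in KPC organoids, and the ranges of all neighbours overlapped.

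Axl (chr7:25757273-25788705, minus strand) encodes a receptor tyrosine kinase for the ligand GAS6. It was at 204, 187 and 231 CPM in day 7 collagen, at 94.98, 107 and 120.3 CPM in 2D cells (lowest, median and highest) and at 81.4, 74.5 and 94.99 CPM in Matrigel. At day 13 in collagen it was at 56.6, 54.7, 56.5, 70.8 and 49.9 CPM in batch 1, at 32.4, 30.7 and 36.0 CPM in KC of batch 2 and at 68.3, 58.7 and 61.2 CPM in KPC. Day 7 collagen stood above all other libraries and KC of batch 2 below all other libraries. Matrigel overlapped 2D cells, and KPC overlapped KC of batch 1.

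Of the factors, Wwtr1 (chr3:57455649-57575910, minus strand) varied most. It was at 51.4, 73.7 and 87.3 CPM in 2D cells (lowest, median and highest), at 78.9, 93.8 and 60.5 CPM in day 7 collagen and at 49.2, 43.2 and 49.5 CPM in Matrigel. At day 13 in collagen it was at 30.1, 46.5, 39.2, 50.6 and 43.1 CPM in batch 1, at 32.4, 39.0 and 42.6 CPM in KC of batch 2 and at 76.0, 78.4 and 84.5 CPM in KPC. In KPC, day 7 collagen and 2D, every library was above every library of Matrigel and both KC day 13 collagen groups, with overlap between neighbours on either side. The gap was narrow, from 51.4 CPM in 2D replicate 5 (107 counts) to 50.6 CPM in batch 1 day 13 replicate 4 (113 counts).

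Yap1 (chr9:7931999-8004596, minus strand) was at 32.9, 40.3 and 45.6 CPM in day 7 collagen, at 34.2, 28.8 and 32.6 CPM in Matrigel and at 22.6, 27.5 and 37.4 CPM in 2D cells (lowest, median and highest). At day 13 in collagen it was at 20.9, 28.8, 27.3, 30.9 and 32.0 CPM in batch 1, at 25.2, 21.6 and 18.7 CPM in KC of batch 2 and at 29.4, 27.5 and 38.5 CPM in KPC. Neighbouring groups overlapped throughout. Tead1 (chr7:112679318-112906807, plus strand) was at 29.5, 34.0 and 42.5 CPM in Matrigel, at 22.6, 32.5 and 33.7 CPM in day 7 collagen and at 19.3, 27.7 and 31.5 CPM in 2D cells. At day 13 in collagen it was at 15.8, 20.6, 25.8, 21.9 and 28.9 CPM in batch 1, at 26.5, 38.3 and 35.3 CPM in KC of batch 2 and at 33.9, 28.1 and 25.9 CPM in KPC, again with overlap between all neighbours.

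**Figure D2:**
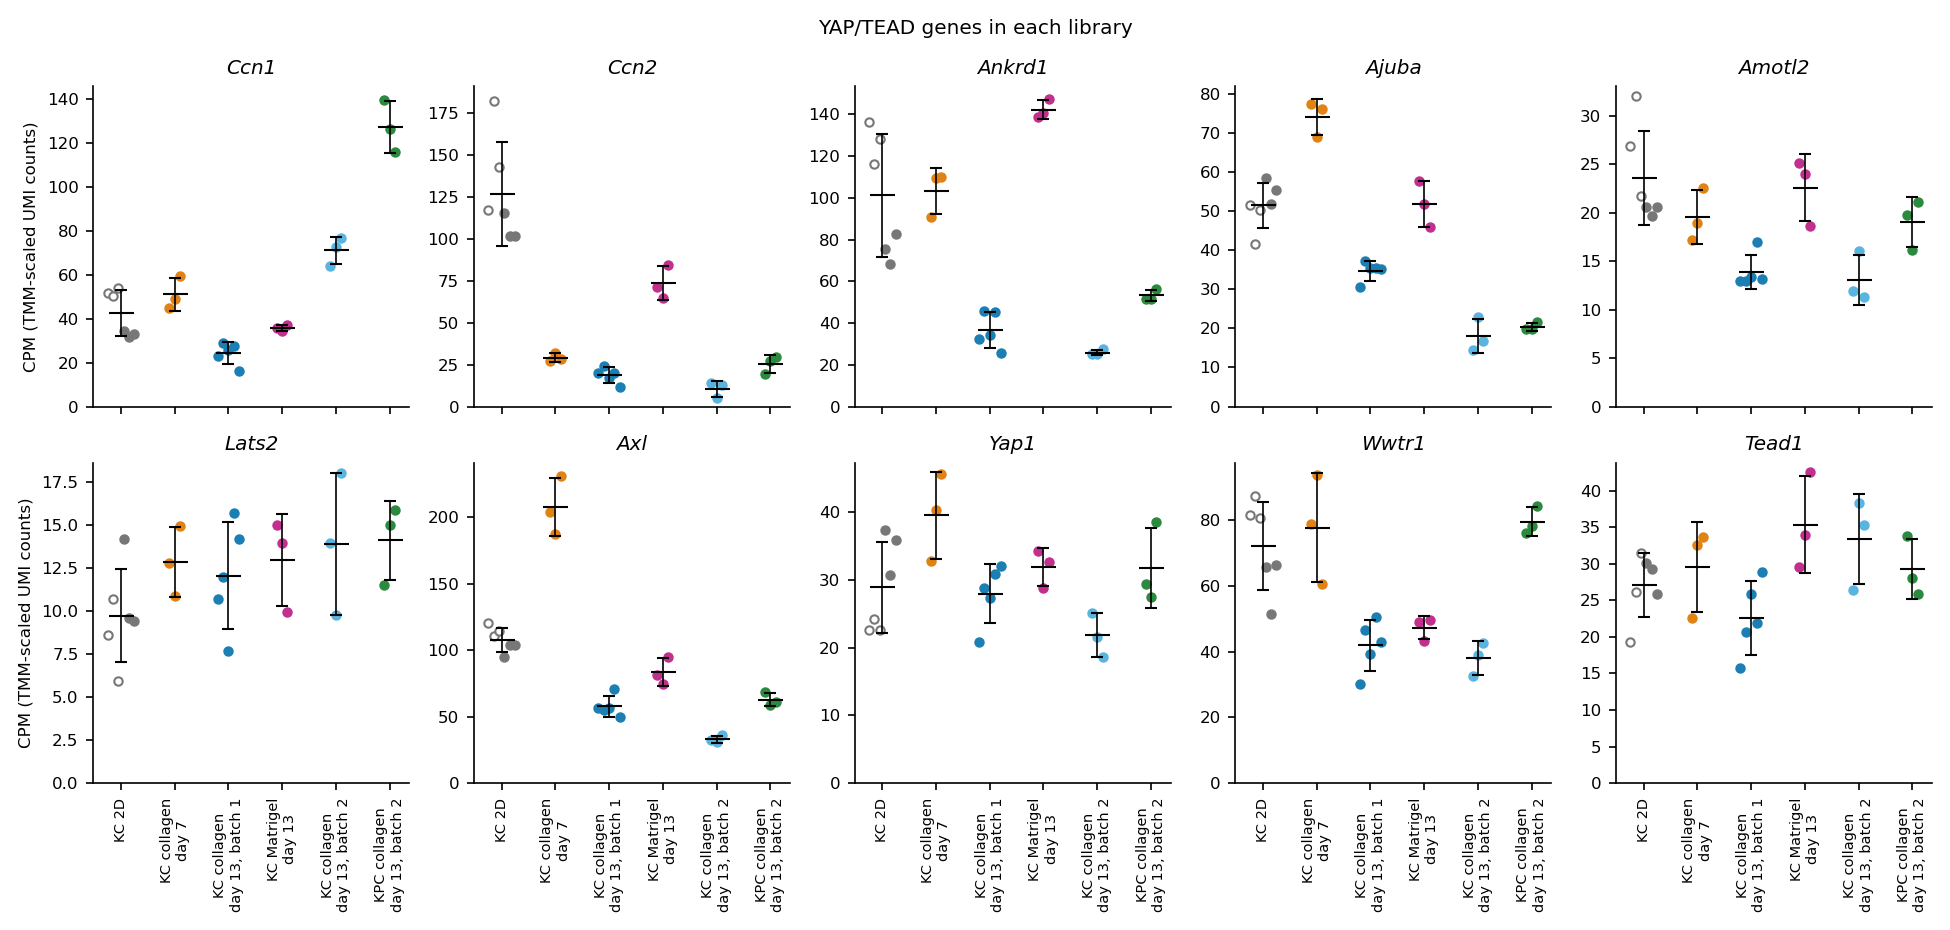
Level of each of the 10 YAP/TEAD genes in each library, in CPM after TMM scaling (y axis from 0), by group, with 1 point per library, bars for the mean ± SD and open grey points for 2D replicates 1 to 3. Axl and Ajuba peak in day 7 collagen, Ankrd1 in Matrigel at 138 to 147 CPM, Ccn2 in 2D cells and Ccn1 in KPC organoids, whereas Lats2 stays between 5.92 and 18.0 CPM.

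The first comparison set Matrigel against collagen at day 13 of batch 1. Collagen gels were detached to float and Matrigel was seeded in domes or gels, with branched organoids in collagen and spherical ones in Matrigel. The matrix could therefore not be told apart from gel format or organoid form. Of the 10 genes, 7 were higher in Matrigel by edgeR's quasi-likelihood test at an adjusted p below 0.1, whereas 6.62% of all tested genes were called higher and 6.29% lower. The median log2 fold change was 0.57 over the 10 genes and -0.01 over all tested genes, and all 10 estimates were above 0. In bulk RNA such a difference cannot separate fewer expressing cells from less RNA per cell.

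The largest differences were those of Ccn2, 3.92-fold higher in Matrigel (log2 1.97 ± 0.21 SE, edgeR adjusted p = 3.475e-07), and Ankrd1, 3.86-fold higher (log2 1.95 ± 0.18 SE, adjusted p = 4.692e-08). Of the 3 targets that act back on the pathway, Amotl2 was 1.64-fold higher (adjusted p = 0.009716) and Ajuba 1.498-fold higher (adjusted p = 0.002859), while Lats2 did not pass the test (log2 0.13, adjusted p = 0.8417). Axl was 1.44-fold higher (adjusted p = 0.004646). Among the factors Tead1 was 1.55-fold higher (adjusted p = 0.0274), while Yap1 (log2 0.19, 95% interval -0.17 to 0.55) and Wwtr1 (log2 0.17, -0.18 to 0.53) did not pass the test.

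Ccn1 was 1.46-fold higher in Matrigel (log2 0.55 ± 0.18 SE, edgeR adjusted p = 0.06153), and this call was not stable. It was lost without Matrigel replicate 1, 2 or 3 (log2 0.54, 0.58 and 0.52) and without batch 1 collagen replicate 1 or 5 (log2 0.53 and 0.45). With all 8 KC day 13 collagen libraries as the reference, Ccn1 turned to log2 -0.19 (edgeR adjusted p = 0.811). The Tead1 call was lost without Matrigel replicate 3 (log2 0.49, adjusted p = 0.1872) and with the 8 libraries (log2 0.42, adjusted p = 0.2259). The other 5 calls held in each of these settings.

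Among 16 other YAP/TAZ targets of a common signature, 14 could be tested, of which 6 were higher and 1 lower in Matrigel (median log2 0.57). By the naming rule these were led by Nuak2, a kinase (log2 1.88), and Arhgef17, a guanine nucleotide exchange factor (log2 1.65), and the lower gene was the forkhead factor Foxf2 (log2 -1.22). Of 18 upstream Hippo genes 5 were higher, including the motin Amot (log2 1.19). The immediate early genes, which respond within minutes to serum and handling, went the other way: 9 of 10 tested were lower in Matrigel, with Fos at 120.1 ± 13.98 CPM against 719 ± 54.6 CPM in collagen (SD, n = 3 and 5). Egr1 was lower as well (log2 -2.77), and Jun was at log2 -0.55 without passing the test (edgeR adjusted p = 0.1506). Markers moved as well, with the epithelial adhesion gene Epcam at 155 to 183 CPM in Matrigel and 45.5 to 75.1 CPM in collagen, and Cd68 at 29.9 to 36.2 and 11.6 to 21.5 CPM. The part of these genes in the difference was not tested.

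The second comparison followed collagen organoids of batch 1 from day 7 to day 13. Here 9 of the 10 genes were called, all lower at day 13, and only Lats2 was not (log2 -0.09, 95% interval -0.58 to 0.40). The background was high in this comparison, with 27.1% of tested genes higher and 28.1% lower. The median log2 fold change was -0.77 over the 10 genes and -0.01 over all tested genes.

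Axl showed the largest fall, to 57.7 ± 7.80 CPM from 208 ± 22.0 CPM (SD, n = 5 and 3), a 3.59-fold difference (log2 -1.84 ± 0.11 SE, edgeR adjusted p = 2.7e-12). Ankrd1 was 2.81-fold lower (log2 -1.49, adjusted p = 3.406e-07), Ajuba 2.13-fold lower (log2 -1.09, adjusted p = 4.696e-08) and Ccn1 2.09-fold lower (log2 -1.07, adjusted p = 1.621e-05). Of the factors, Wwtr1 was 1.86-fold lower (log2 -0.89, edgeR adjusted p = 6.755e-05). Ccn2 (log2 -0.65), Yap1 (log2 -0.51), Amotl2 (log2 -0.49) and Tead1 (log2 -0.40, overlapping libraries) fell by less.

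The calls of these smaller differences were lost when single libraries were left out, with estimates of the same sign. Without day 7 replicate 3 the calls of Amotl2 (log2 -0.38), Yap1 (log2 -0.39) and Tead1 (log2 -0.30) were lost, and without day 7 replicate 2 those of Ccn2 (log2 -0.57) and Tead1 (log2 -0.32). The Tead1 call was also lost without day 13 replicate 1, 2 or 4 (log2 -0.28, -0.36 and -0.39). Scaling by library size alone also ended the calls of Yap1 (log2 -0.46) and Tead1 (log2 -0.35). With the 8 KC day 13 libraries of both batches, Ccn1 (log2 -0.33, edgeR adjusted p = 0.4201) and Tead1 (log2 -0.18, adjusted p = 0.4898) were not called, and the other 7 were.

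Of the 14 other targets tested, 4 were higher and 6 lower at day 13 (median log2 -0.35). Rbms3 (log2 1.80), Foxf2 (log2 1.67) and the ectonucleotidase gene Nt5e (log2 1.27) led those that rose, and Igfbp3 (log2 -1.49), Arhgef17 (log2 -1.14) and the phosphatase gene Ptpn14 (log2 -1.13) led those that fell. The 18 upstream Hippo genes split into 2 higher and 6 lower. Markers moved too: Epcam was at 5.87 ± 1.73 CPM at day 7 and 56.2 ± 13.4 CPM at day 13, Sox9, a ductal transcription factor, at 87.5 ± 4.22 and 202 ± 60.1 CPM, and Cd68 at 4.61 ± 1.06 and 16.3 ± 4.45 CPM (SD, n = 3 and 5), all called higher at day 13. Of the 7 ductal epithelial markers, however, 3 were called higher and 2 lower (median log2 0.09). The part of these markers in the result was not tested. Of the immediate early genes 8 of 10 rose, with Fos at log2 0.73 and Egr1 at log2 1.30, while Jun was at log2 -0.10 without passing the test (edgeR adjusted p = 0.747).

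**Figure D3:**
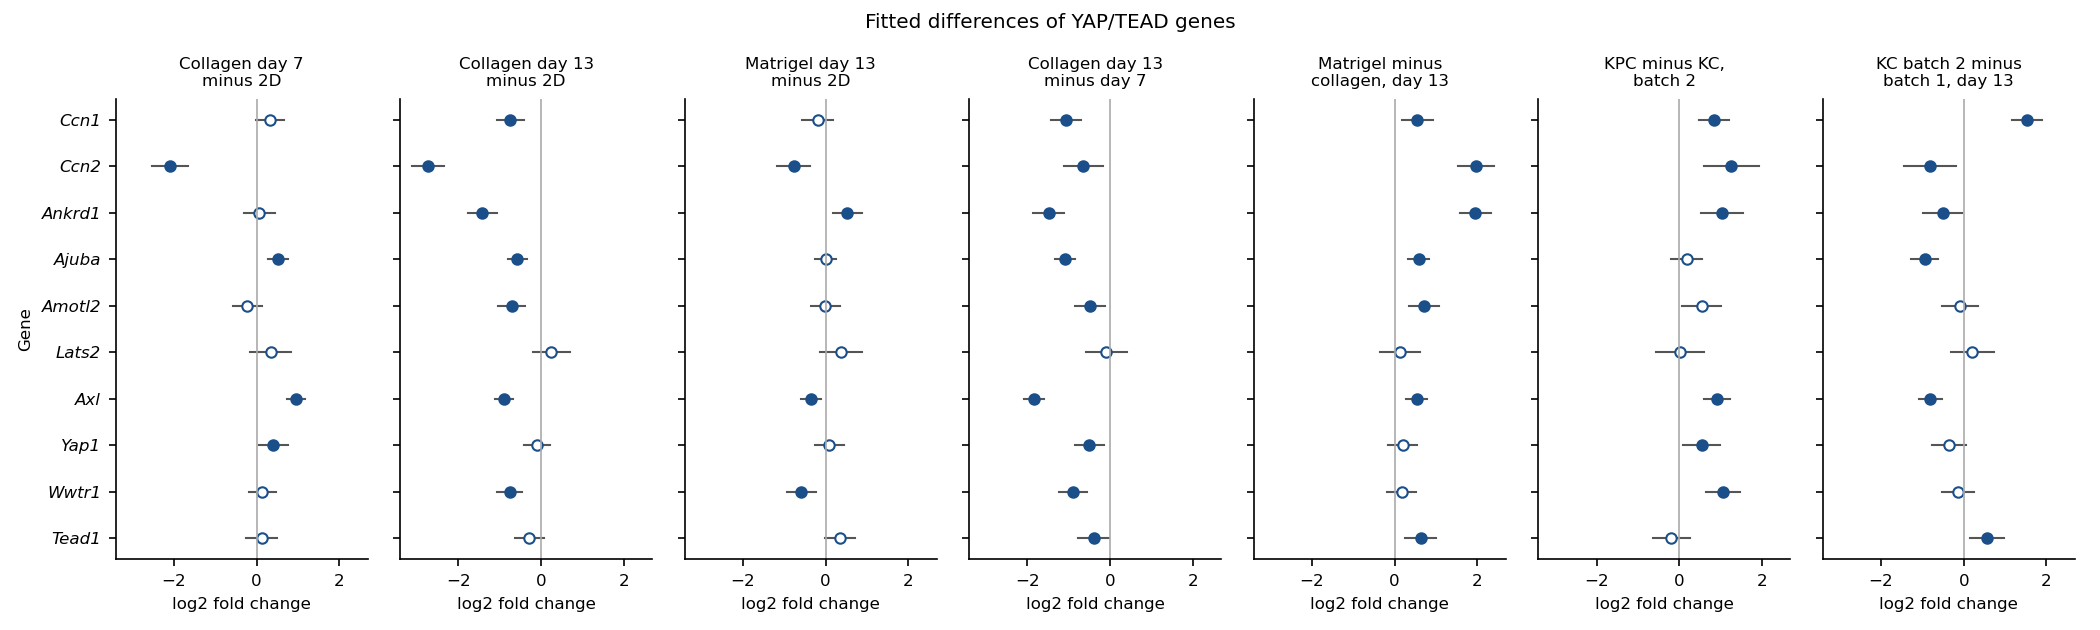
Fitted log2 fold change (x axis) of each YAP/TEAD gene in each of 7 comparisons, with 95% intervals as lines and filled points for an edgeR adjusted p below 0.1. All 10 points lie below 0 from day 7 to day 13 in collagen and above 0 for Matrigel against collagen, and 9 of 10 lie above 0 for KPC against KC.

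The 3 organoid groups of batch 1 were each compared with the same 2D cells, which they share as their reference. In collagen at day 7, 4 of the 10 genes were called, 3 higher and 1 lower, against a background of 24.8% higher and 26.4% lower. In collagen at day 13, 7 were called, all lower, against 23.3% higher and 26.3% lower. In Matrigel, 4 were called, 1 higher and 3 lower, against 20.1% higher and 21.9% lower. The counts at day 7 and in Matrigel thus lay near the share over all genes. The median log2 fold change over the 10 genes was 0.23 at day 7, -0.73 at day 13 and -0.00 in Matrigel, and over all tested genes it was -0.02, -0.01 and -0.02.

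Ccn2 was lower than in 2D cells in every organoid group of batch 1. It was 4.28-fold lower in day 7 collagen (log2 -2.10 ± 0.21 SE, edgeR adjusted p = 3.193e-08), 6.71-fold lower in day 13 collagen (log2 -2.75 ± 0.19 SE, adjusted p = 4.732e-11) and 1.71-fold lower in Matrigel (log2 -0.77 ± 0.19 SE, adjusted p = 0.003133). All 3 calls held with either 2D set alone. Against replicates 4 to 6 the log2 values were -1.88, -2.48 and -0.51, and against replicates 1 to 3 they were -2.34, -3.00 and -1.02.

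In day 7 collagen the genes called higher were Axl at 1.93-fold (log2 0.95 ± 0.11 SE, edgeR adjusted p = 2.275e-07), Ajuba at 1.43-fold (log2 0.51 ± 0.12 SE, adjusted p = 0.001015) and Yap1 at 1.32-fold (log2 0.40 ± 0.17 SE, adjusted p = 0.05266). The Axl and Ajuba libraries did not overlap those of 2D cells, and both calls held against replicates 4 to 6 (log2 1.02 and 0.40) and 1 to 3 (log2 0.84 and 0.63). The Yap1 libraries did, and its call was lost without day 7 replicate 2 (log2 0.41, adjusted p = 0.1046) or 3 (log2 0.31) and against 2D replicates 4 to 6 (log2 0.17, adjusted p = 0.4334). Ccn1 was at log2 0.32, and was called without 2D replicate 1, 2 or 3 (log2 up to 0.42) and against replicates 4 to 6 (log2 0.61, adjusted p = 0.001724), but was at log2 -0.03 against replicates 1 to 3. Ankrd1 had no single direction, being higher against replicates 4 to 6 (log2 0.44, edgeR adjusted p = 0.007744) and lower against replicates 1 to 3 (log2 -0.30, adjusted p = 0.06374). Wwtr1 was called higher against replicates 4 to 6 (log2 0.33) and Amotl2 lower against replicates 1 to 3 (log2 -0.46).

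In day 13 collagen the fall beyond Ccn2 was led by Ankrd1, 2.68-fold lower (log2 -1.42 ± 0.17 SE, edgeR adjusted p = 3.278e-07), and Axl, 1.86-fold lower (log2 -0.89 ± 0.10 SE, adjusted p = 2.496e-07). Wwtr1 (log2 -0.76), Ccn1 (log2 -0.74), Amotl2 (log2 -0.72) and Ajuba (log2 -0.58) were lower too. The 7 calls of this comparison held with either 2D set, Ccn1 at log2 -0.40 against replicates 4 to 6 and -1.11 against replicates 1 to 3. With the 8 KC day 13 libraries of both batches, Ccn1 was at log2 -0.02 (adjusted p = 0.9597) and the other 6 remained called. Yap1 was at log2 -0.10 (95% interval -0.42 to 0.21), and Tead1 was at log2 -0.28, called only without batch 1 collagen replicate 5 (log2 -0.37, adjusted p = 0.08912).

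In Matrigel, Ankrd1 was the gene called higher, at 1.44-fold (log2 0.52 ± 0.17 SE, edgeR adjusted p = 0.02158), and Wwtr1 (log2 -0.59) and Axl (log2 -0.36) were lower beside Ccn2. The Ankrd1 libraries were all above 2D cells, but against 2D replicates 1 to 3 the difference was log2 0.16 (adjusted p = 0.3444). The Wwtr1 and Axl calls were lost against replicates 4 to 6 (log2 -0.34 and -0.24) and with scaling by library size alone (log2 -0.29 and -0.07), and that of Axl also without Matrigel replicate 2 (log2 -0.27, adjusted p = 0.1528). Tead1 was called without Matrigel replicate 1 (log2 0.48, adjusted p = 0.08557) and Lats2 without 2D replicate 4 (log2 0.56, adjusted p = 0.09213). Ccn1, Ajuba, Amotl2, Lats2, Yap1 and Tead1 did not pass the test with all 6 2D libraries, although against replicates 1 to 3 Ccn1 was called lower (log2 -0.54) and Yap1 higher (log2 0.46).

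The other targets moved in both directions in these comparisons, which were made with all 6 2D libraries only. Of 14 tested, 6 were higher and 4 lower in day 7 collagen, 5 higher and 5 lower in day 13 collagen, and 8 higher and 1 lower in Matrigel, with medians of log2 -0.00, 0.03 and 0.50. In day 7 collagen the named genes were Igfbp3 (log2 1.04), the Hippo kinase gene Map4k4 (log2 0.91) and F3, which encodes tissue factor (log2 0.83), against Nuak2 (log2 -1.87), Amot (log2 -1.23) and Fjx1, which had 0 or 1 count in the organoids and 0 to 6 in 2D cells. In day 13 collagen they were Foxf2 (log2 1.48), Nt5e (log2 1.05) and Rbms3 (log2 0.88) against Wtip, a LIM gene related to Ajuba (log2 -1.55), Arhgef17 (log2 -1.36) and Gadd45a (log2 -1.14). In Matrigel they were Rbms3 (log2 1.95), Nt5e (log2 1.24) and Nuak2 (log2 1.19) against Gadd45a (log2 -0.62), Tead2 (log2 -0.55) and Wtip (log2 -0.52).

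Upstream Hippo genes were called higher and lower in numbers of 7 and 2 at day 7, 3 and 4 at day 13, and 7 and 1 in Matrigel, of 18 tested. Of 4 TEAD family and VGLL cofactor genes tested, 1 was higher and 2 lower at day 7, and 1 was lower at day 13 and in Matrigel. Ccn4, the only other CCN gene with enough counts, was lower in both collagen groups. The immediate early genes were higher in collagen, 8 of 10 at day 7 and 10 of 10 at day 13, with Fos at log2 1.43 and 2.16, Jun at log2 0.91 and 0.81, and Egr1 at log2 0.78 and 2.08. In Matrigel 2 were higher and 2 lower, with Egr1 at log2 -0.69, and Fos (log2 -0.42) and Jun (log2 0.27) did not pass the test.

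**Figure D4:**
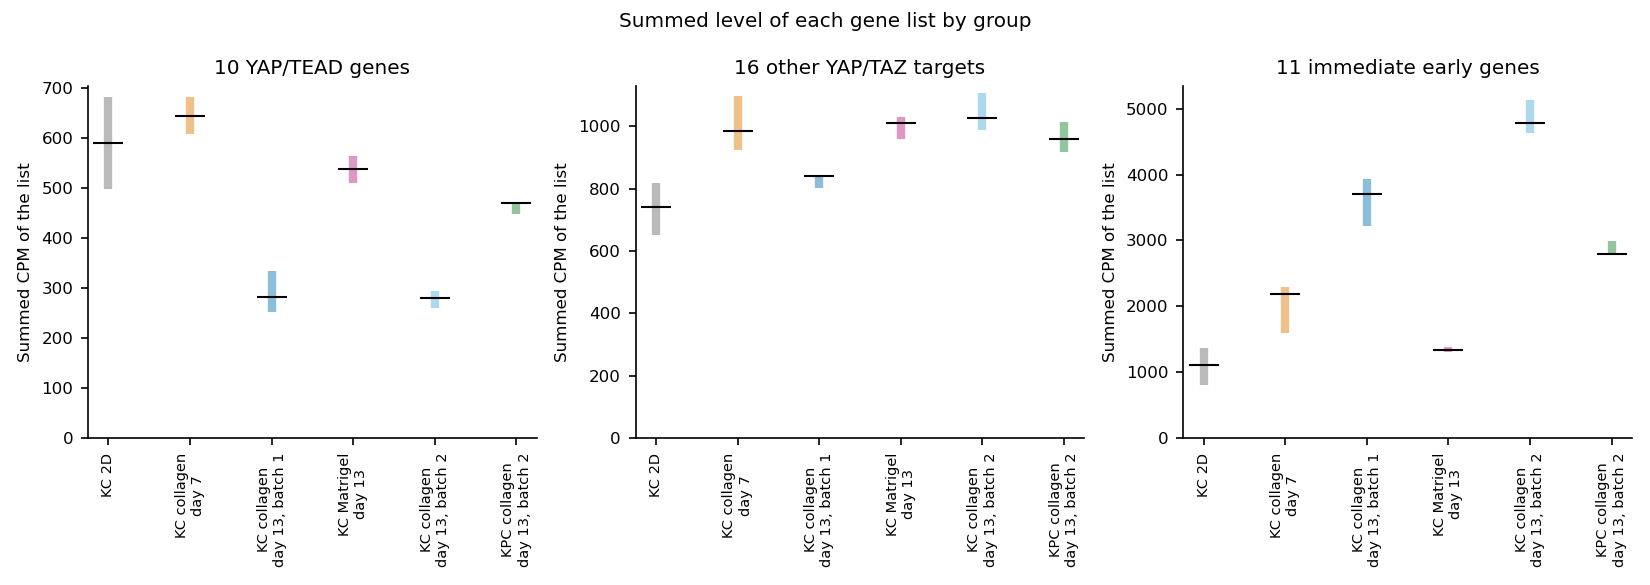
Summed CPM of the 10 YAP/TEAD genes, of 16 other YAP/TAZ targets and of 11 immediate early genes in each group, with bars from the lowest to the highest library and a black line at the median (y axes from 0). The 10 genes sum to 253 to 335 CPM in KC day 13 collagen of either batch and to 448 CPM or more in the other groups, whereas the immediate early genes are highest in KC day 13 collagen. The other targets do not share this low sum. They reach 801 to 845 CPM in KC day 13 collagen of batch 1 and 988 to 1107 CPM in batch 2. Their sums are 653 to 819 CPM in 2D cells and 917 to 1098 CPM in the remaining groups.

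The KPC line was compared with the KC line within batch 2, both in collagen at day 13. Of the 10 genes 6 were called, all higher in KPC, against a background of 9.58% higher and 10.4% lower. The median log2 fold change was 0.69 over the 10 genes and 0.01 over all tested genes.

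The 3 targets Ccn2, Ankrd1 and Ccn1 were all higher in KPC. Ccn2 was 2.40-fold higher (log2 1.26 ± 0.32 SE, edgeR adjusted p = 0.008152), Ankrd1 2.06-fold higher (log2 1.04 ± 0.25 SE, adjusted p = 0.004756) and Ccn1 1.79-fold higher (log2 0.84 ± 0.18 SE, adjusted p = 0.001869). Axl was 1.89-fold higher (log2 0.92 ± 0.15 SE, adjusted p = 0.0001171). Wwtr1 was 2.09-fold higher (log2 1.07 ± 0.20 SE, edgeR adjusted p = 0.0004316).

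Yap1 was 1.46-fold higher (log2 0.55 ± 0.22 SE, edgeR adjusted p = 0.09492), and its call was lost without KC replicate 2 or 3 (log2 0.53 and 0.44) or KPC replicate 1 or 3 (log2 0.59 and 0.38), with DESeq2 (adjusted p = 0.138) and with library size alone (log2 0.67, adjusted p = 0.1305). Amotl2, with libraries that did not overlap, was at log2 0.54 (adjusted p = 0.1129) and was called without KC replicate 2 (log2 0.70, adjusted p = 0.09767). Other edgeR settings called it too: library size alone (adjusted p = 0.0569), only the 2 compared groups (0.09953) and KC of both batches (log2 0.48, 0.05994). DESeq2 (adjusted p = 0.2447) and edgeR with a replicate block (adjusted p = 0.1771) did not. Ajuba (95% interval of log2 -0.20 to 0.56), Lats2 (-0.56 to 0.61) and Tead1 (-0.64 to 0.25) did not pass the test. Against the KC day 13 libraries of both batches together, Ccn1 was at log2 1.64 and Ccn2 at log2 0.67, Axl (log2 0.36, adjusted p = 0.181) and Yap1 (log2 0.30, adjusted p = 0.264) were no longer called, and Ajuba turned to log2 -0.50 (adjusted p = 0.1203).

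Of the 14 other targets, 2 were higher and 4 lower in KPC. Fjx1 had 50 counts in KPC and 5 in KC over 3 libraries each, a ratio of 9.41 per count sequenced (95% exact Poisson interval 3.78 to 30.2, counting error only). Wtip (log2 2.38) and Tead2 (log2 1.37) were also higher, and Nt5e (log2 -1.03), Foxf2 (log2 -0.96) and Dock5 (log2 -0.77) were lower. Wtip was the 1 upstream gene of 18 to be called, and 2 of 4 TEAD and VGLL genes were higher. Cd68 was lower in KPC (7.41 ± 4.03 against 18.9 ± 0.89 CPM, SD, n = 3 each) and Epcam higher (log2 0.59), both called by edgeR. Of the 7 ductal epithelial markers (median log2 -0.21), edgeR called 1 higher and 1 lower, and DESeq2 called 0 higher and 2 lower. The part of these markers in the result was not tested. The immediate early genes were lower, 8 of 10, with Fos at log2 -1.04 and Egr1 at log2 -1.12, and Jun at log2 -0.54 did not pass the test (edgeR adjusted p = 0.145).

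The KC line in collagen at day 13 was present in both batches, which gave a measure of how far the same labelled condition differed between them. Of the 10 genes 6 were called, 2 higher and 4 lower in batch 2, against a background of 19.3% higher and 18.1% lower. Ccn1 was 2.90-fold higher in batch 2 (log2 1.54 ± 0.18 SE, edgeR adjusted p = 4.233e-07), and its estimate between Matrigel and collagen within batch 1 was log2 0.55. The median log2 fold change was -0.25 over the 10 genes and -0.05 over all tested genes. Ajuba was 1.93-fold lower (log2 -0.95, adjusted p = 4.581e-05) and Axl 1.75-fold lower (log2 -0.80, adjusted p = 9.033e-05), each without overlap.

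Tead1 was higher (log2 0.56, edgeR adjusted p = 0.02931) and Ccn2 (log2 -0.82, adjusted p = 0.04219) and Ankrd1 (log2 -0.51, adjusted p = 0.09858) were lower, each with overlapping libraries. Without KC batch 2 replicate 2, which had 7 counts of Ccn2, Ccn2 was at log2 -0.48 and Tead1 at log2 0.46, and neither was called. The Ccn2 call was also lost without batch 1 replicate 2 (log2 -0.70), and that of Tead1 without batch 2 replicate 3 (log2 0.52) and with library size alone (log2 0.43). That of Ankrd1 was lost when any single library of the 8 was left out except batch 1 replicate 5 (log2 -0.40 to -0.55), and Yap1 was called lower without batch 1 replicate 1 (log2 -0.44, adjusted p = 0.08309). Lats2, Amotl2 and Wwtr1 were not called with all 8 libraries.

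Of the 14 other targets, 5 were higher and 2 lower in batch 2, led by Asap1 (log2 1.26) and Myof (log2 1.02) against Foxf2 (log2 -1.35) and Gadd45a (log2 -1.11). The upstream gene Wwc2 (log2 0.88) was among 6 of 18 called higher. Immediate early genes were higher in 5 of 10 cases, Fos at log2 0.88 and Jun at log2 1.19, with Egr1 at log2 0.29 (edgeR adjusted p = 0.2408).

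In the fit of all 23 libraries with TMM scaling, Lats2 was called in none of the 7 comparisons by edgeR, with an unadjusted p of 0.1406 or more in each, and DESeq2 called it in none. Other edgeR settings called it higher than in 2D cells. For Matrigel these were library size alone (log2 0.63, edgeR adjusted p = 0.08341), a replicate block (log2 0.65, adjusted p = 0.06261) and leaving out 2D replicate 4 (log2 0.56, adjusted p = 0.09213), and for day 7 collagen the replicate block (log2 0.64, adjusted p = 0.05917). The 95% interval for Matrigel against 2D cells ran from log2 -0.13 to 0.88.

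The genes most like each of the 10 in pattern were found by the correlation of log2 CPM over the 23 libraries, among 6602 genes with a mean of at least 20 CPM. Axl was closest to Ranbp1 (r = 0.9745) and Elk3 (r = 0.956), Ccn2 to Igfbp7 (r = 0.964) and Rab34 (r = 0.906), and Ajuba to Pls3 (r = 0.953) and Rbmxl1 (r = 0.940). Ccn1 was closest to Arpc4 (r = 0.915) and Smc5 (r = 0.911), Ankrd1 to Plat (r = 0.896) and Sorbs2 (r = 0.889), and Amotl2 to Sorbs2 (r = 0.874) and Palmd (r = 0.836). Among the factors, Wwtr1 was closest to Klra4 (r = 0.887) and Ctsl (r = 0.885), Yap1 to Galnt10 (r = 0.781) and Ptbp1 (r = 0.773), and Tead1 to Prpf39 (r = 0.708) and Itga2 (r = 0.692). Lats2 was closest to Asxl1 (r = 0.756) and Zzef1 (r = 0.747). These values describe shared levels over 6 groups of libraries that share their batch and depth, and the correlations of the same pairs within groups were lower, from 0.239 for Ajuba and Pls3 to 0.741 for Wwtr1 and Klra4.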

How the data were processed

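Poly(A) RNA of 23 samples was sequenced from the 3′ end with UMIs. The deposited values are raw UMI counts per gene, which the authors made with the Drop-seq pipeline on GRCm38 with GENCODE gene models. They are molecules and not reads, so counting error alone does not cover culture or library error, and with 1221451 to 2471058 counts per library a gene under about 3 counts is near the floor.

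Groups came from the labels for matrix, day, genotype and batch. Further alleles of the lines, and the check of a targeted gene, are not reported here. Counts were tested with edgeR 4.0.16 (R 4.3.3): filterByExpr by group, TMM scaling, a quasi-likelihood fit of the 6 groups over 23 libraries and Benjamini-Hochberg adjustment over 11144 genes, called at 0.1. The fit was tested on simulated data. CPM used the same scaling, and folds are fitted values. DESeq2 1.42.0, other scalings, filters, reference sets, a stricter threshold, a replicate block and leaving out each library were the alternatives, and the 2D sets were added after seeing the data. The members and lists were chosen with earlier results of these data known. Named were the 10 genes, in each comparison the 3 called genes with the highest and the 3 with the lowest log2 fold change over the other pathway lists, Fos, Jun and Egr1, and the 2 genes most like each member. Replicate numbers did not pair the libraries. Gene positions are GENCODE M21 on GRCm38.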

Additional observations from a re-analysis of the deposited data

Results flagged for a closer look

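Amotl2 in collagen day 13 batch 1 replicate 4 was at 17.02 CPM, while the other 4 libraries of the group were at 12.9 to 13.4 CPM. Its gap to the nearest library was 0.889 of the group's range, above Dixon's 95% critical value for 5 samples. It was the only one of 20 groups of values screened that passed, and chance flags about 1 in 20. Leaving this library out did not change the Amotl2 call in day 13 collagen against 2D cells, day 7 collagen or Matrigel.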

How the results depend on the processing

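The number of the 10 genes called stayed within 1.5 times of the reported count except in the 2 settings named here. Leaving out 1 library gave 3 to 5 called in day 7 collagen against 2D, 7 to 8 in day 13 collagen against 2D, 3 to 5 in Matrigel against 2D, 6 to 9 from day 7 to day 13, 5 to 7 in Matrigel against collagen, 5 to 6 in KPC against KC and 3 to 6 between the batches, where the lowest count came without KC batch 2 replicate 2. Without that library the count of all genes called between the batches also fell, to 3135 from 4162. With 2D replicates 4 to 6 only, Matrigel against 2D kept 2 calls, and Axl and Wwtr1 were lost. All genes called in that comparison fell as well, to 3853 from 4680.

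Same-numbered libraries did not pair: 2 of 23 pairs had a correlation of deviations above 0.1 (range -0.119 to 0.188), and 5 of 23 libraries correlated best with their own number. A replicate block gave 5, 7, 6, 9, 6, 6 and 6 called genes in the 7 comparisons in the order above. Under the block Ankrd1 in day 7 collagen against 2D was at log2 -0.17 and Yap1 in day 13 collagen against 2D at 0.0139. Ankrd1 in Matrigel against 2D (0.29) and Ccn1 in Matrigel against collagen (0.39) lost their calls under it, while Lats2 in day 7 collagen (0.64) and in Matrigel (0.65), and Ccn1 (-0.45) and Tead1 (0.49) in Matrigel against 2D, gained one. The count of all genes called between the batches fell to 2760 from 4162. For the batches, however, the block sets replicate 1 of each batch as the baseline in place of the group means. That count and the 6 calls between the batches are therefore no check of the batch difference.

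Scaling by library size alone moved the median of all genes by log2 0.26 in Matrigel against 2D, 0.20 and 0.16 in collagen day 13 and day 7 against 2D, 0.12 in KPC against KC and -0.14 between the batches. The share of higher genes among those called went from 47.8% to 76.7%, 46.9% to 68.1%, 48.4% to 62.5%, 48.0% to 67.9% and 51.6% to 35.2% in the same order, and from 51.3% to 68.6% in Matrigel against collagen, where 954 genes were called in place of 1439. The direction of the 10 genes changed with it for Ccn1 (0.10) and Amotl2 (0.27) in Matrigel against 2D and for Yap1 (0.092) in day 13 collagen against 2D, none of them called. It ended the calls of Axl (-0.07) and Wwtr1 (-0.29) in Matrigel against 2D, Yap1 (-0.46) and Tead1 (-0.35) from day 7 to day 13, Yap1 in KPC (0.67) and Tead1 between the batches (0.43). It added calls for Ccn1 (0.51) and Wwtr1 (0.32) in day 7 collagen, Tead1 (0.62) and Lats2 (0.63) in Matrigel against 2D and Amotl2 in KPC (0.67).

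The remaining reversals are grouped by comparison. In Matrigel against 2D these were Ajuba (-0.0003938 with DESeq2's size factors, -0.0008027 with its Wald test, -0.0463 with 2D replicates 4 to 6 only), Amotl2 (0.0555 with no filter, 0.0176 with a mean of 10 counts, 0.21 with replicates 4 to 6), Ccn1 (0.15) and Yap1 (-0.0882) with replicates 4 to 6. In day 7 collagen, with 2D replicates 1 to 3 only, they were Ccn1 (-0.0306), Wwtr1 (-0.10) and Ankrd1 (-0.30, called), and in day 13 collagen Yap1 (0.25). Lats2 in KPC was at -0.00737 with no filter. With 8 day 13 collagen libraries, Ccn1 in Matrigel against collagen was at -0.19, Ajuba in KPC at -0.50 and Tead1 in KPC at 0.15. Leaving out single libraries reversed Ajuba (-0.06998 to 0.0789) and Amotl2 (-0.0812 to 0.11) in Matrigel against 2D, Ankrd1 (-0.0303 to 0.18) and Wwtr1 (-0.0176 to 0.30) in day 7 collagen, Yap1 (-0.15 to 0.0115) in day 13 collagen, Lats2 in KPC (-0.18 to 0.24), from day 7 to day 13 (-0.21 to 0.0464) and between the batches (-0.0146 to 0.41), and Amotl2 between the batches (-0.25 to 0.00865). The causes were not tested. Counts were low for Lats2 (6 to 38 per library) and for Ccn2 in KC of batch 2 (7 to 21).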
